A study of Mus musculus with 12 samples.

Results

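The comparison described here is that of differentiated cells given recombinant human BIGH3 with differentiated cells not given it. Its members are the 6 libraries that the labels place in the differentiated arm, 3 with BIGH3 and 3 controls, of 12 libraries in the series. All come from a wild-type mouse osteocyte line that the labels call MLO-Y4, grown on plates coated with rat-tail type I collagen. The deposited library names carry the prefix MC3, and which line was sequenced was not tested. Both groups were kept in the differentiation medium of the labels, which adds ascorbic acid (50 µg/mL) and β-glycerophosphate (4 mM) to α-MEM and 10% serum of fetal calves, so the controls carry that medium too. The dose, the duration of exposure and the vehicle of BIGH3 are not given in the sources used here, and the protocol text also names HCQ and an anti-BIGH3 antibody that no treatment label assigns to any of these libraries. The other 6 libraries are undifferentiated cells with and without BIGH3, 3 each, and serve here only to set the same genes side by side. The series asks what BIGH3 does to osteocytes and their gap junctions in bone metastasis of clear cell renal cell carcinoma.

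BIGH3, also called TGFBI or keratoepithelin, is a secreted protein of the extracellular matrix that is induced by TGF-β, binds collagens and is bound by integrins. Osteocytes are the terminally differentiated cells of the osteoblast lineage. They sit in mineralised matrix, are joined to each other by gap junctions made mostly of connexin 43, and control mineral, osteoblasts and osteoclasts through secreted factors. Cells of this lineage also respond to cytokines and to bacterial products, through NF-κB, STAT3 and C/EBP factors, with acute-phase proteins and chemokines.

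The differentiated libraries held 19014492 to 23560231 estimated reads with BIGH3 and 22803778 to 25736952 in the controls. Values in CPM are estimated reads as counts per 1000000 after scaling the libraries to each other, and values in TPM are the deposited ones, which also correct for transcript length. The labels do not say whether the replicates were separate cultures, so the p-values measure only the spread between these libraries, which may be technical. Of the markers of osteoblasts and osteocytes, Col1a1 and Col1a2 are abundant and Dmp1 and Pdpn are present. Fgf23 had no read in the 6 libraries, Sost had 0 reads with BIGH3 and 10 in the controls, and Mepe had 2 and 42. The collagen chains do not mark osteocytes alone. Of these markers, Dmp1 and Pdpn go with the label osteocyte, and Fgf23, Sost and Mepe do not. Of 18 osteocyte markers, 12 had enough reads to be tested, among them Phex, described below. The summed level of 18 fetal liver markers was 9.85, 10.7 and 59.3 CPM with BIGH3 and 20.1, 62.2 and 21.96 CPM in the controls. BIGH3 replicate 3 and control replicate 2 stand apart from the others, 1 in each group, with Afp, the fetal albumin-like protein, at 2.28, 3.64 and 26.98 CPM with BIGH3 and 1.65, 24.9 and 2.29 CPM in the controls. Counts below are given without these libraries, here called the liver-positive pair, where a count of members moved by 1.5 times or more. Of 14 macrophage markers, 4 were tested, Fcer1g rose (3.26 ± 0.66) and Lyz2, the lysozyme, fell (-0.28 ± 0.07), and the list summed to 38.001 to 46.4 CPM with BIGH3 and 48.5 to 51.4 CPM in the controls, of which Lyz2 made 39.3 and 47.8 CPM in the means. The macrophage markers Cybb, Tyrobp and Itgam had no read, of the osteoclast markers Dcstamp, Calcr and Tnfrsf11a had none, and the 9 erythroid markers summed to at most 0.28 CPM with BIGH3 and 0.331 CPM in the controls. The 10 epithelial markers summed to 3.56 to 10.1 CPM with BIGH3 and 14.003 to 20.1 CPM in the controls, and the part of any of these cell types in the results was not tested.

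In differentiated cells, 6687 of 14711 genes tested differed between BIGH3 and control at an adjusted p under 0.05 (45.5%, edgeR quasi-likelihood test with Benjamini-Hochberg adjustment, as for every gene below), of which 3322 rose (22.6%) and 3365 fell (22.9%). The median log2 fold change over all genes tested was -0.0059, and a gene's SE was 0.09 in the median, so that modest differences passed the test. In 6489 of the called genes the 3 treated libraries did not overlap the 3 controls. A call favours such separation, and the share over all genes tested was not counted, so this number adds no support to the calls. More than 2-fold, 1003 genes rose and 571 fell. Past 16-fold, 39 rose and 44 fell. Since close to 1 gene in 2 was called, a count of called members in a list is to be read against these percentages, and the direction and size of a list say more than the number called. A member nearly silent in 1 group passed the low-count filter only through another group, so a list's counts and median can lean toward the group where such members are high. In bulk RNA, a change in the number of cells of a kind and a change in the RNA of each cell cannot be told apart.

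Some of the gene lists below belong to regulatory programmes whose DNA motifs are textbook knowledge. Promoter windows of RefSeq on GRCm38.p6 were therefore searched on both strands for those motifs. They ran from 250 bases before the start site to 50 after it. 13415 windows of 10523 tested genes were available. A match is a description of letters in a window, not a binding site. The C/EBP motif TTGCNNAA was in a window of 11 of 14 acute-phase genes (78.6%) and of 10.3% of all genes. Of the 14, 8 rose and 7 of these held it, so members that did not rise held it too. TTTGAA, the core of the cell cycle homology region, was in 40 of 57 mitosis genes (70.2%, all genes 14.5%), and CCAAT, the NF-Y box, in 41 of 57 (71.9%, all genes 43.5%). The E2F motifs TTTCCCGC and TTTGGCGC were in 8 and 7 of 44 DNA replication genes (18.2% and 15.9%, all genes 2.27% and 1.05%). These motifs can overlap each other by some bases. The NF-κB consensus was in 15 of 68 inflammatory genes (22.1%, all genes 12.2%), and the sterol element TCACNCCAC in 1 of 21 sterol genes (4.76%, all genes 1.28%). Among the members that rose, TTTGAA was in 39 of 55 and CCAAT in 40 of 55. The E2F motifs were in 7 and 7 of 41, the NF-κB consensus in 11 of 41 and the sterol element in 1 of 12. Gene sets of this kind were chosen with the motifs in mind, and no test was made of these shares.

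The windows printed below are of called members of the gene list searched for each motif, with the matches in capitals. Among members that hold the motif, those with the smallest adjusted p were taken (ties by unadjusted p). Genes of a chromosome left out by the rule were not eligible. Cxcl10 (chr5:92348840-92349139, minus strand), Tnip1 (chr11:54962891-54963190, minus strand) and Tnfaip3 (chr10:19015361-19015660, minus strand) show the NF-κB consensus, in Cxcl10 and Tnip1 at overlapping positions. Cp (chr3:19956999-19957298, plus strand) shows the C/EBP motif -70 bases from the start site. Mcm3 (chr1:20820263-20820562, minus strand) shows both E2F motifs close to each other, Cenpf (chr1:189688037-189688336, minus strand) shows CCAAT upstream and TTTGAA at the start site, and Hmgcs1 (chr13:119690101-119690400, plus strand) the sterol element. Each sequence runs 5′ to 3′ on the gene's strand, so a match on the other strand reads as its reverse complement.
Cxcl10: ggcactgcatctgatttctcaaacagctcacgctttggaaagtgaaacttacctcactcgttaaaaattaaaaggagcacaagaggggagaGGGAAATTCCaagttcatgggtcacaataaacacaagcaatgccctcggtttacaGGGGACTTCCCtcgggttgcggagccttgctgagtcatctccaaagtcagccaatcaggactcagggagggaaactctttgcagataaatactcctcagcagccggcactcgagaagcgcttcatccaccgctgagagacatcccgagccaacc
Tnip1: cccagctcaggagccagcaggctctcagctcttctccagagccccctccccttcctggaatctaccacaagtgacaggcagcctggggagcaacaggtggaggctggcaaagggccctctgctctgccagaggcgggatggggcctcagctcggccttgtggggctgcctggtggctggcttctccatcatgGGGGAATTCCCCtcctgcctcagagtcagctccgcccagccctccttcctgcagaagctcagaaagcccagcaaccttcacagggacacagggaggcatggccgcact
Tnfaip3: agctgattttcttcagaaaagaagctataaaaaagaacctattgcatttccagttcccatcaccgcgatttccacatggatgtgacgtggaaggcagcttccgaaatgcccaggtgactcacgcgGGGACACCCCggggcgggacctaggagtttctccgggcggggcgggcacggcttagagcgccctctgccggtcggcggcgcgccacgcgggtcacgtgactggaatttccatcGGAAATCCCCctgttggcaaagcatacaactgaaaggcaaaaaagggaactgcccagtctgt
Cp: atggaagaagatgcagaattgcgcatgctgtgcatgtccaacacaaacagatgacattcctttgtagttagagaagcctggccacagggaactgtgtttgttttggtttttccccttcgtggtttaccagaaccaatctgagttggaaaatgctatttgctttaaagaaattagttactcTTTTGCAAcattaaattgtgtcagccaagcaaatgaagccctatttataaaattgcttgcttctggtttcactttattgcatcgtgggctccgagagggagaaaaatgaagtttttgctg
Mcm3: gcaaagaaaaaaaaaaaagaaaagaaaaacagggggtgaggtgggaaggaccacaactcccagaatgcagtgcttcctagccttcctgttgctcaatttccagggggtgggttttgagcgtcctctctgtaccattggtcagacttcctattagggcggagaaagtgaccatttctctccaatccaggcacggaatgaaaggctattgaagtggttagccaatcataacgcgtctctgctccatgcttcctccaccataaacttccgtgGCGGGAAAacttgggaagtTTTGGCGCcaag
Cenpf: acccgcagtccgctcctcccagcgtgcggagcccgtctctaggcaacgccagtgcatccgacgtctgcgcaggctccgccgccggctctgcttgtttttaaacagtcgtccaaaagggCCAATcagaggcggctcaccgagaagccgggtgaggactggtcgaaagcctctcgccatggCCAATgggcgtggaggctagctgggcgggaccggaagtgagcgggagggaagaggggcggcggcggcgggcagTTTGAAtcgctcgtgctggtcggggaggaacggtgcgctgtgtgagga
Hmgcs1: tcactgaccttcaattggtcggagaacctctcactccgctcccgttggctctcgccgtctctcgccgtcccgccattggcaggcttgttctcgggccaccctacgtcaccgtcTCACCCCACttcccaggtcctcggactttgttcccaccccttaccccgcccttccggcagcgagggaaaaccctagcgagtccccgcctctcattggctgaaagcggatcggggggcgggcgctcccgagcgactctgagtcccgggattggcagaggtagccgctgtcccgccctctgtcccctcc

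**Figure D1:**
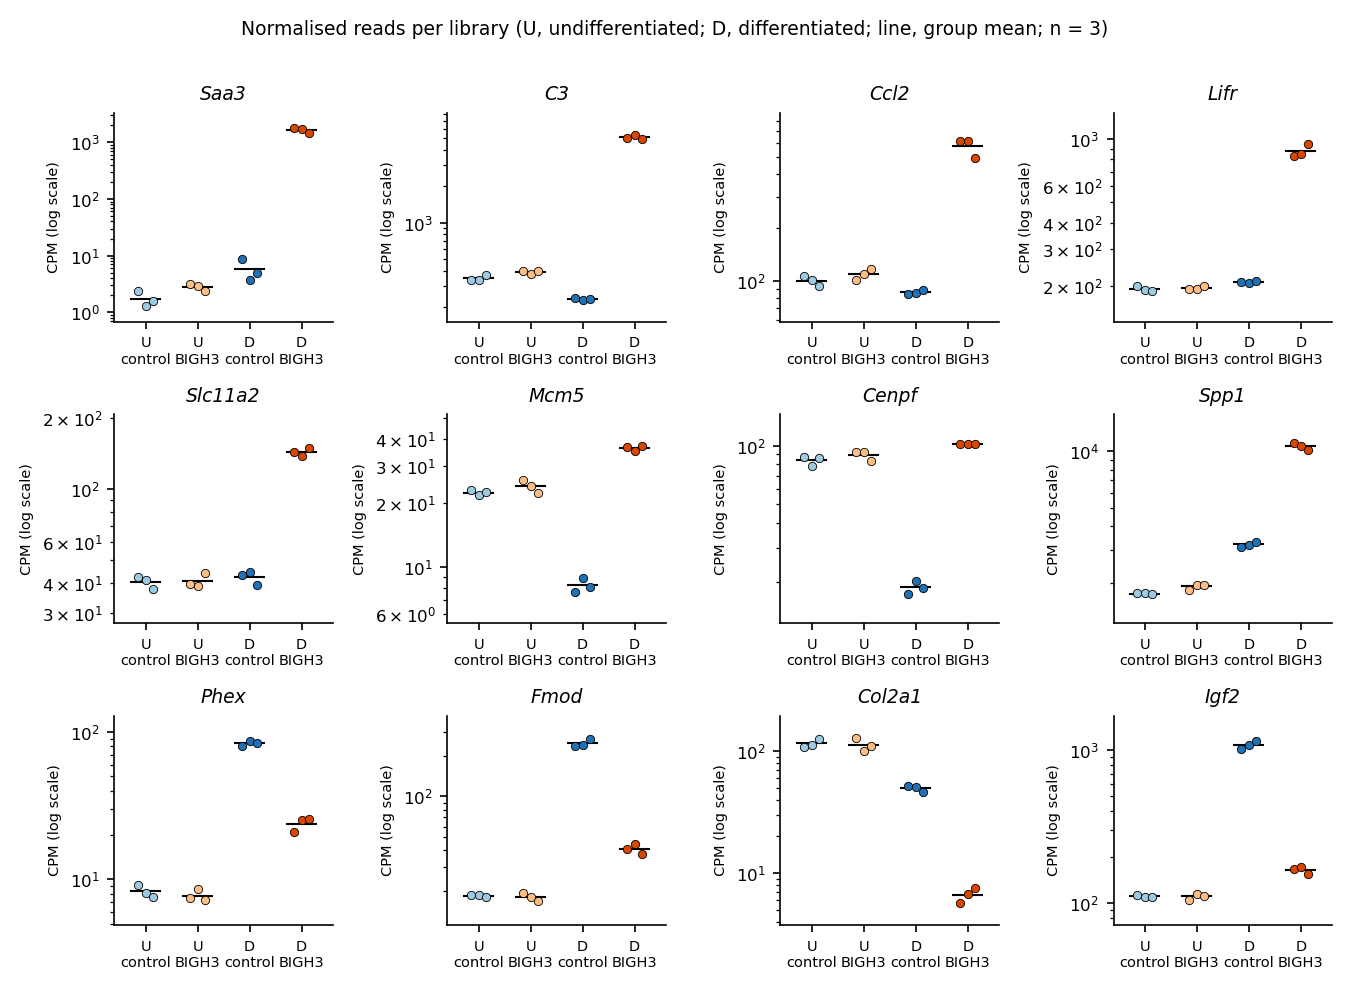
The vertical axes give CPM on a log scale for 12 genes, each point is 1 library, and the line is the mean of 3. Saa3, C3, Ccl2, Lifr, Slc11a2 and Spp1 sit highest in the differentiated BIGH3 libraries, Mcm5 and Cenpf are low in the differentiated controls, and Phex, Fmod and Igf2 are high in the differentiated controls with the other groups below them.

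Acute-phase proteins are secreted, in the body mainly by the liver, when cytokines signal injury or infection. Of 16 tested, 10 rose with BIGH3 and 2 fell, and the list's median log2 fold change was 1.82, beside -0.0059 for all genes. Saa1 and Saa4, nearly silent in the controls, passed the filter only through another group, so this count and median can lean toward rises. Lcn2, the siderophore-binding lipocalin, stood at 361, 334 and 260.3 CPM with BIGH3 and 1.45, 0.66 and 1.24 CPM in the controls, and Hp, the haemoglobin-binding haptoglobin, at 1259.5, 1279.8 and 1216 and 15.8, 11.3 and 12.4 CPM. The log2 fold changes were 8.13 ± 0.22 and 6.57 ± 0.13 (SE, n = 3 each, adjusted p = 1.35e-09 and 4.89e-13). Both genes rank among the largest rises, a ranking that admitted only genes without overlap between the groups. Cp, the copper-carrying ferroxidase ceruloplasmin, rose from 658, 651 and 707 CPM in the controls to 2126, 2148 and 2127 CPM (log2 fold change 1.67 ± 0.05, adjusted p = 4.03e-16). Lbp, which hands endotoxin to CD14, rose by 0.61 ± 0.06 on the log2 scale (adjusted p = 8.29e-08). The serum amyloid A genes were close to silent in the controls. Saa1 had 328 reads in the 3 BIGH3 libraries and 4 in the 3 controls, a 95.1-fold difference in mean CPM, and Saa4 had 248 reads against 1, a ratio of 308 with a counting interval of 51.04 to 11382 (95%, counting error only). The fitted log2 fold change of Saa4 was 7.71 and, without control replicate 1, 9.56. Saa1 and Saa2 are near-identical, so their division is uncertain. The members that fell, Itih3, a hyaluronan-binding inhibitor heavy chain, and Ptx3, a long pentraxin, were named after their values were seen, with log2 fold changes of -0.81 and -0.66. Hpx, the haem-binding hemopexin, did not pass the test (0.50 ± 1.35, adjusted p = 0.80), nor did the liver fibrinogen chain Fgb (0.45 ± 1.96, adjusted p = 0.88). Reads of Fgb sat mostly in the liver-positive pair, at 0.0912, 0.107 and 2.18 CPM with BIGH3 and 0.0827, 1.32 and 0.32 CPM in the controls.

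The Serpina3 cluster encodes mouse relatives of α1-antichymotrypsin, an acute-phase inhibitor of serine proteases. All 5 members that had enough reads to be tested rose, with a median of 5.36, and the other 6 of 11 were not tested, so this count covers only members that the BIGH3 group brought over the filter or that were already expressed. Serpina3f stood at 81.97, 87.7 and 73.03 CPM with BIGH3 and 1.45, 0.802 and 0.915 CPM in the controls, and Serpina3g at 45.4, 43.8 and 34.2 and 0.785, 1.13 and 1.098 CPM. In TPM, on which genes can be compared, the means with BIGH3 were 45.5 ± 2.78 and 39.2 ± 3.39 (SD, n = 3). Serpina3i had 921 reads with BIGH3 and 3 in the controls, a ratio of 365 (121 to 1726), and Serpina3c had 75 against 3, a ratio of 28.01 (9.53 to 143). With so few control reads the fitted log2 values depend on single libraries: without control replicate 1 that of Serpina3i went from 8.29 to 9.07 and that of Serpina3c from 4.69 to 4.098, and without control replicate 3 that of Serpina3c went to 5.54. Serpina3n rose from 0.174 to 4.57 CPM (4.65 ± 0.42, adjusted p = 1.22e-08). These genes are close copies of one another, and reads may have been divided among them.

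In the complement system, 9 of 13 components tested rose and none fell (median 0.59), of which 7 were still called without the liver-positive pair. C3, the component on which the 3 activation routes converge, stood at 5028, 5344 and 4963 CPM with BIGH3 and 238, 230.1 and 236 CPM in the controls, and the groups were far apart (4.45 ± 0.05, adjusted p = 7.47e-23). Cfb, the protease of the alternative route, rose from 104, 106 and 110.01 CPM to 292, 312 and 283 CPM (1.47 ± 0.07, adjusted p = 6.20e-13). Of the classical route, C4b rose from 184 to 625 CPM (1.76 ± 0.08), C1ra by 0.62 ± 0.04 and C1s1 by 0.48 ± 0.04 on the log2 scale (largest adjusted p of the 3 1.54e-08). C4a, a near copy of C4b, did not pass the test (0.59 ± 0.33, adjusted p = 0.15), and the division of reads between them is uncertain. Among 9 regulators and receptors, 4 rose and 3 fell, or 2 and 2 without the liver-positive pair. Serping1, the C1 inhibitor, rose from 2.73, 2.97 and 2.38 to 16.5, 14.3 and 14.05 CPM (2.47 ± 0.41, adjusted p = 6.69e-04). Vtn, vitronectin, which blocks the terminal pore and is also a liver marker, went the other way, from 14.6, 13.7 and 14.6 CPM to 4.103, 3.74 and 4.42 CPM (-1.81 ± 0.18, adjusted p = 3.28e-08). Clu, the chaperone clusterin, moved by -0.18 ± 0.06 (adjusted p = 0.015), a call lost without BIGH3 replicate 3 (adjusted p = 0.067) and without the liver-positive pair (0.18).

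Chemokines recruit leukocytes along a gradient. The 8 CXC chemokines tested of 15 all rose (6 without the liver-positive pair, median 1.797), and of 13 CC chemokines and Cx3cl1, 8 rose and 1 fell (median 0.58). Members nearly silent in the controls, such as Cxcl1, passed the filter only through another group, so these counts and medians can lean toward rises. Cxcl1, a neutrophil attractant, had 473 reads with BIGH3 and 4 in the controls, a 134-fold difference in mean CPM. Cxcl12, the ligand of CXCR4 that holds haematopoietic cells in the marrow, stood at 3233, 3249 and 3041 CPM with BIGH3 and 1279, 1355 and 1408 CPM in the controls (1.24 ± 0.05, adjusted p = 7.04e-15). In TPM, which allows genes to be compared, Cxcl12 stood at 1789 ± 23.2 with BIGH3 and Cxcl5, another neutrophil chemokine, at 251.1 ± 17.8 (SD, n = 3). Cxcl10, a T cell attractant, rose from 26.995, 29.6 and 28.6 to 91.1, 89.5 and 88.1 CPM (1.66 ± 0.08). Ppbp and Pf4, known from platelets, rose from 13 to 105 reads and from 32 to 78 reads (adjusted p = 2.21e-05 and 0.0066). The log2 fold change of Ppbp went from 3.18 to 3.796 without the liver-positive pair, and Pf4 lost its call without BIGH3 replicate 1 (adjusted p = 0.055).

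Of the CC chemokines, Ccl2, the main monocyte attractant, stood at 622, 619.7 and 497 CPM with BIGH3 and 84.3, 85.2 and 89.2 CPM in the controls (2.75 ± 0.08, adjusted p = 2.69e-13). Ccl3 rose from 36 to 415 reads and Ccl9 from 11.9 to 39.8 CPM (3.704 ± 0.37 and 1.74 ± 0.13, adjusted p = 5.94e-08 and 6.44e-09). Cx3cl1, the membrane-anchored fractalkine, rose by 1.05 ± 0.05. Ccl11, the eosinophil attractant eotaxin, ran against its relatives: it stood at 10.4, 11.7 and 10.1 CPM with BIGH3 and 57.05, 52.996 and 57.5 CPM in the controls (-2.38 ± 0.08, adjusted p = 3.26e-15). Ccl27a and Ccl28 did not pass the test (-0.06 ± 0.24 and 0.25 ± 0.35). The receptors were scarce: 3 of 18 had enough reads to be tested, and 1 was called, Ackr4, a scavenger of CC chemokines, which fell by 1.46 ± 0.06 on the log2 scale (adjusted p = 6.37e-14).

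NF-κB is held in the cytoplasm by inhibitors of the IκB family, which kinases remove, and the released dimers switch on inflammatory genes and their own inhibitors. Of 26 subunits, inhibitors, adaptors and kinases tested, 15 rose and 3 fell (median 0.49). Nfkbiz, an atypical IκB protein that acts in the nucleus, stood at 83.9, 83.9 and 81.5 CPM with BIGH3 and 6.41, 6.88 and 9.15 CPM in the controls (3.48 ± 0.10, adjusted p = 6.07e-16). Bcl3, another nuclear IκB protein, went from 3.64, 2.78 and 3.203 to 19.97, 16.04 and 15.4 CPM (2.42 ± 0.15). The classical inhibitors Nfkbia and Nfkbie rose by 0.89 ± 0.05 and 1.501 ± 0.08, the precursor subunit Nfkb1 by 0.89 ± 0.05 and the ubiquitin ligase Birc3 by 1.396 ± 0.09, all with non-overlapping groups (largest adjusted p 6.18e-11). The kinase Map3k7 and its partner Tab2 did not pass the test (-0.04 ± 0.05 and -0.04 ± 0.05).

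Feedback inhibitors of inflammation rose in 12 of 24 cases and fell in 3 (median 0.16). Tnfaip3, the deubiquitinase A20, stood at 36.3, 36.5 and 37.6 CPM with BIGH3 and 8.76, 9.902 and 7.92 CPM in the controls (2.05 ± 0.10, adjusted p = 8.50e-13), and its partner Tnip1 at 192, 199 and 191 and 94.6, 86.1 and 87.997 CPM (1.11 ± 0.05). Zc3h12a, the RNase regnase-1 that degrades Il6 mRNA, rose by 2.18 ± 0.07, the MAP kinase phosphatase Dusp1 by 1.54 ± 0.10 and the STAT3 inhibitor Socs3 by 1.304 ± 0.07. Socs2, which restrains growth hormone signalling, fell from 398 to 191 CPM (-1.06 ± 0.05, adjusted p = 1.41e-12). The mRNA-decay factors Zfp36l1 and Zfp36l2 did not pass the test (0.05 ± 0.05 and -0.07 ± 0.05). Of 5 C/EBP factors tested, Cebpd and Cebpb rose and Ddit3 fell. Cebpd stood at 102, 97.97 and 81.8 CPM with BIGH3 and 29.4, 27.6 and 29.7 CPM in the controls (1.702 ± 0.14, adjusted p = 3.18e-06), Cebpb rose by 0.57 ± 0.14 (adjusted p = 0.01), and Ddit3, the stress factor CHOP, fell by 0.74 ± 0.06 (adjusted p = 2.15e-09).

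Cytokines of the IL-6 family share the signal-transducing receptor chain gp130, encoded by Il6st. Of 7 ligands tested, 3 rose and none fell. Il6 stood at 15.5, 13.3 and 10.6 CPM with BIGH3 and 1.94, 2.07 and 2.15 CPM in the controls (2.68 ± 0.17, adjusted p = 6.09e-11), and Lif at 26.7, 26.3 and 22.3 and 4.75, 6.601 and 7.001 CPM (2.04 ± 0.13, adjusted p = 2.85e-11). On the receiving side 9 of 16 rose and 4 fell (median 0.26). Lifr, the LIF receptor, rose from 209, 206 and 211 to 830.1, 850.5 and 947 CPM (2.07 ± 0.05), Osmr, the oncostatin M receptor, by 1.84 ± 0.06, the kinase gene Jak2 by 1.37 ± 0.06, and Il6st by 0.41 ± 0.04 (largest adjusted p 1.82e-07). Il11ra1, the IL-11 receptor, fell from 89.3 to 51.1 CPM (-0.81 ± 0.07, adjusted p = 4.10e-09).

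In the IL-1 family, the ligands split. Il33, a nuclear alarmin, rose by 1.196 ± 0.10, and Il1a had 93 reads with BIGH3 and 1 in the controls, a ratio of 104 (18.8 to 4296) and a fitted log2 fold change of 6.28 that became 8.16 without control replicate 3. Il18 fell from 11.4, 13.3 and 12.996 to 5.74, 3.26 and 4.59 CPM (-1.46 ± 0.16, adjusted p = 1.99e-07) and the receptor antagonist Il1rn by 0.37 ± 0.06. Of 12 receptors and adaptors, 7 rose and 2 fell (median 0.60). Il1rl1, the receptor of IL-33, stood at 59.5, 62.1 and 43.99 CPM with BIGH3 and 14.96, 16.6 and 17.1 CPM in the controls (1.77 ± 0.11, adjusted p = 1.88e-10), and Il1r1, the IL-1 receptor, at 33.01, 36.04 and 32.7 and 18.5, 18.3 and 18.4 CPM (0.88 ± 0.07). Myd88, the adaptor shared with Toll-like receptors, rose by 0.35 ± 0.08, while the downstream kinase Irak4 did not pass the test (-0.12 ± 0.09).

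Toll-like receptors and the proteins that present endotoxin to them rose in 8 of 14 cases and fell in 1 (median 0.60). Tlr2, which senses bacterial lipoproteins, stood at 209, 209 and 212 CPM with BIGH3 and 60.3, 61.6 and 59.4 CPM in the controls (1.795 ± 0.04, adjusted p = 1.11e-17). Of the endotoxin receptor, Tlr4 rose by 1.19 ± 0.06, its coreceptor Cd14 by 1.93 ± 0.13 and Ly96 (MD-2) by 0.98 ± 0.09 (largest adjusted p 1.25e-08). Tlr3, the sensor of double-stranded RNA, did not pass the test (-0.06 ± 0.09, adjusted p = 0.60). The endotoxin content of the recombinant protein is not given in the sources used here.

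Of 18 TNF family ligands and receptors, 11 rose and 2 fell (median 0.53). Fas, the death receptor, stood at 162, 166 and 147 CPM with BIGH3 and 23.4, 24.1 and 22.7 CPM in the controls (2.76 ± 0.08, adjusted p = 9.38e-17), and Tnfrsf9, the costimulatory receptor 4-1BB, at 53.3, 52.5 and 48.4 and 8.35, 6.37 and 7.596 CPM (2.79 ± 0.09). Tnfrsf1b rose by 1.58 ± 0.11, Tnfrsf21 by 1.52 ± 0.24 and the ligand Tnfsf14 (LIGHT) by 3.42 ± 0.25. The members that fell were Tnfrsf11b, described with the osteoclast regulators, and Tnfrsf19 (-2.53 ± 0.53), named after its value was seen.

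For antigen presentation on MHC class I, 12 of 21 genes tested rose and 3 fell, or 8 and 2 without the liver-positive pair, with small sizes (median 0.20). The class I heavy chain H2-K1 rose by 0.73 ± 0.05 and H2-D1 by 0.31 ± 0.05, genes whose close copies make the division of reads uncertain, while the light chain B2m did not pass the test (0.11 ± 0.05). Interferon-stimulated genes were divided, 21 of 55 higher and 13 lower with a median of 0.05. Gbp5, a guanylate-binding protein, rose most among those named (2.54 ± 0.10), the transcription factor Irf1 rose by 0.86 ± 0.05 and the receptor chain Ifnar2 by 1.05 ± 0.05, while Ifit3 stood at 231, 227 and 297 and 256, 239 and 236 CPM and did not pass the test. Of 12 leukocyte adhesion molecules, 5 rose and 2 fell. Vcam1, which binds the integrin VLA-4 of leukocytes, stood at 1002, 969 and 969 CPM with BIGH3 and 470.5, 465 and 473 CPM in the controls (1.06 ± 0.04, adjusted p = 1.71e-14), whereas Icam1 did not pass the test (0.06 ± 0.21).

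Nitric oxide and prostaglandins are the diffusible messengers of osteocytes. Of 21 genes of nitric oxide and arginine metabolism, 3 rose and 8 fell. Nos2, the inducible synthase, had 39 reads over the 3 controls and 3725 over the 3 BIGH3 libraries, and the arginine carrier Slc7a2 rose by 0.46 ± 0.06. The neuronal synthase Nos1 fell from 18.98, 18.01 and 18.6 to 5.15, 6.096 and 3.92 CPM (-1.87 ± 0.13) and Odc1, the first enzyme of polyamine synthesis, by 1.03 ± 0.06. Ass1, which recycles citrulline, did not pass the test (-0.10 ± 0.05). Of 17 prostaglandin genes, 7 rose and 6 fell. Ptgs2, the inducible cyclooxygenase, stood at 248, 247 and 235 CPM with BIGH3 and 84.04, 96.1 and 89.3 CPM in the controls (1.44 ± 0.05, adjusted p = 9.67e-15), Ptgs1 rose by 0.76 ± 0.08 and the phospholipase Pla2g4a by 0.77 ± 0.04. The PGE2 synthase Ptges moved the other way, by -0.46 ± 0.05 (adjusted p = 5.97e-07), a call lost with limma on log2(TPM + 1) (adjusted p = 0.12).

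Iron, copper and zinc handling genes rose in 12 of 24 cases and fell in 4 (median 0.37). Slc39a14, a carrier of zinc and iron, stood at 93.7, 92.9 and 90.3 CPM with BIGH3 and 28.9, 30.03 and 30.2 CPM in the controls (1.64 ± 0.07, adjusted p = 4.50e-14), and Slc11a2, the divalent metal carrier DMT1, rose by 1.76 ± 0.06. Fth1, the ferritin heavy chain, rose from 4617, 4315 and 4310.2 to 9674, 9078 and 8185 CPM (1.02 ± 0.05), while Ftl1, the light chain, fell by 0.67 ± 0.06 (named after its value was seen). The metalloreductases Steap1 and Steap2 rose by 1.82 ± 0.12 and 0.82 ± 0.07. The iron sensors Aco1 and Ireb2 did not pass the test (-0.11 ± 0.06 and -0.04 ± 0.05).

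**Figure D2:**
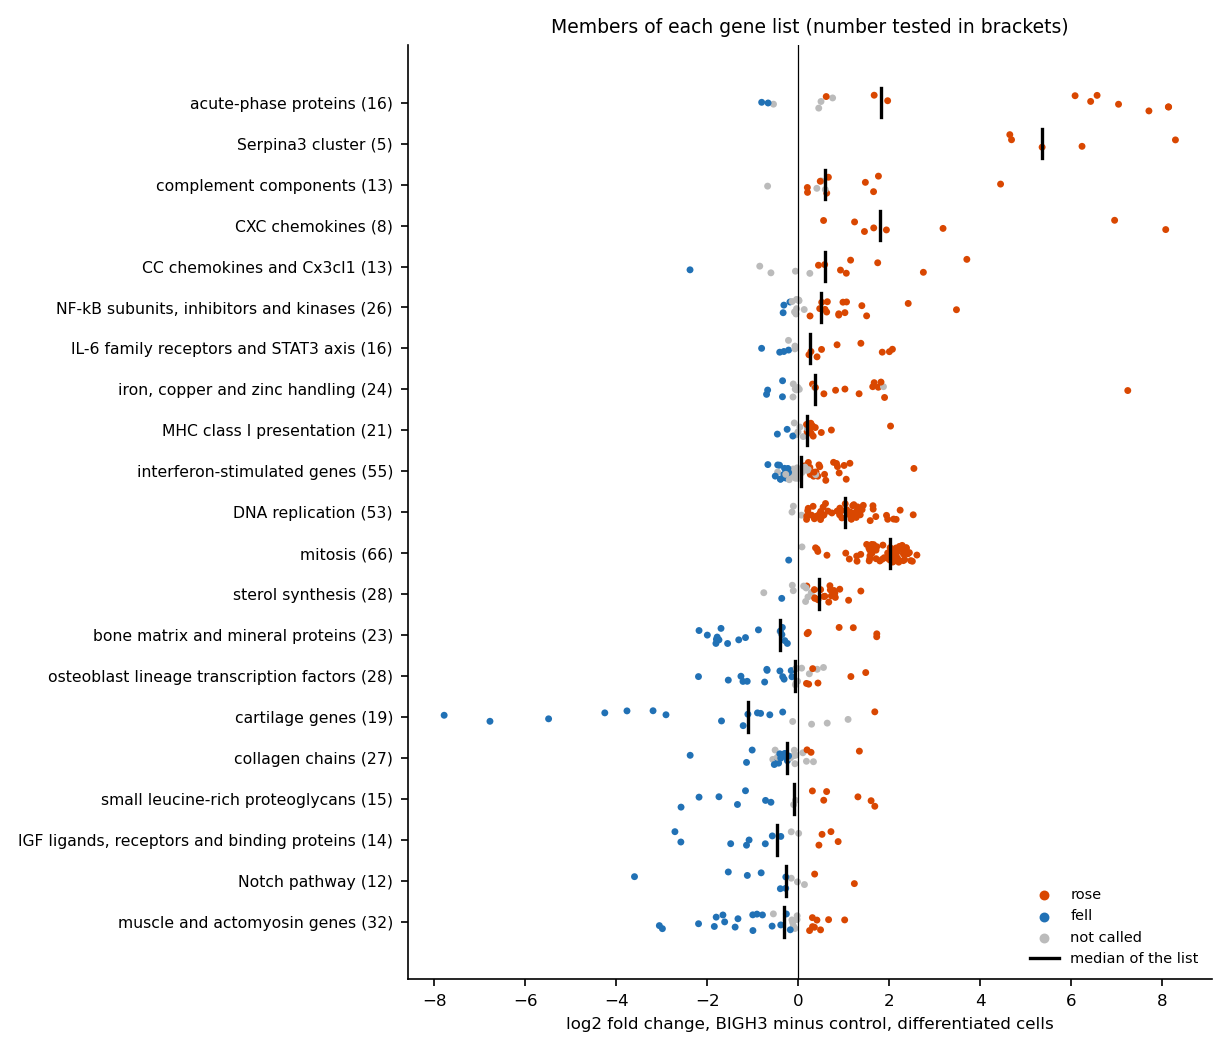
Each point is a tested gene of 21 of the lists, placed by its log2 fold change of BIGH3 against control in differentiated cells, coloured by whether it rose, fell or was not called, and the bar is the list's median. The mitosis and DNA replication lists lie almost wholly to the right of 0 (medians 2.01 and 1.03), and the cartilage list mostly to its left (-1.11).

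Genes of cell division moved almost wholly in 1 direction. The machinery that copies DNA rose in 50 of 53 genes tested and fell in none, with a median log2 fold change of 1.03. Mcm5, a subunit of the replicative helicase, stood at 36.8, 35.2 and 37.2 CPM with BIGH3 and 7.65, 8.86 and 8.0996 CPM in the controls (2.15 ± 0.08, adjusted p = 9.67e-15), and its partners Mcm3, Mcm2 and Mcm4 rose by 1.64 ± 0.06, 1.58 ± 0.06 and 1.43 ± 0.07. Tk1 and Rrm2, which supply deoxynucleotides, rose by 2.53 ± 0.12 and 1.704 ± 0.08. In undifferentiated cells Mcm5 stood at 22.98, 21.7 and 22.4 CPM in the controls and 25.8, 24.1 and 22.3 CPM with BIGH3, so the differentiated controls were the low group and the differentiated BIGH3 libraries the high one. The members that did not pass the test were Orc3, Orc4 and Orc5 of the origin recognition complex (-0.11, -0.14 and 0.07).

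In mitosis 64 of 66 genes rose and 1 fell, with a median of 2.01, which is close to a 4-fold difference. Cenpf, a kinetochore protein, stood at 102, 102 and 102 CPM with BIGH3 and 17.4, 20.3 and 18.6 CPM in the controls (2.44 ± 0.07, adjusted p = 5.80e-17). Top2a, the topoisomerase of dividing cells, went from 86.98, 79.6 and 85.6 to 351, 358 and 308 CPM (2.01 ± 0.06), and Mki67, the proliferation antigen, from 27.2, 28.9 and 27.9 to 117, 126 and 114 CPM (2.08 ± 0.07). Undifferentiated cells held 84.003, 214 and 89.6 CPM of these 3 in the mean of the controls and 89.5, 221 and 102 CPM with BIGH3. The ubiquitin-conjugating enzyme Ube2c rose by 2.51 ± 0.11, the phosphatase Cdc25c by 2.61 ± 0.20, the spindle protein Hmmr by 2.31 ± 0.06 and the cytokinesis scaffold Anln by 2.09 ± 0.07. Bub3, of the spindle checkpoint, did not pass the test (0.08 ± 0.06), and Pttg1, securin, fell slightly (-0.21 ± 0.08, named after its value was seen), while no member fell without the liver-positive pair.

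Upstream of these, 14 of 23 G1 cyclins, kinases, inhibitors and E2F or Rb factors rose and 1 fell. E2f7 and E2f8, atypical E2F factors that rise in S phase, went up by 2.07 ± 0.18 and 1.85 ± 0.16, Ccne2, cyclin E2, by 1.56 ± 0.12, and Cdk6 by 0.84 ± 0.07. Cdkn2c, the CDK inhibitor p18, fell by 0.44 ± 0.05. Ccnd1, cyclin D1, stood at 442, 461 and 423 CPM with BIGH3 and 420.4, 418 and 412 CPM in the controls and did not pass the test (0.08 ± 0.05). Of 31 clustered histone genes tested, 12 rose and 6 fell (4 without the liver-positive pair). The rises included Hist1h4d (1.26 ± 0.26) and Hist2h4 (1.19 ± 0.20), and the falls Hist1h2be (-1.15 ± 0.13) and Hist1h2bc (-0.75 ± 0.07). Histone genes are near-identical copies and many of their mRNAs carry no poly(A) tail, so these values are uncertain.

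Bone matrix and mineral proteins moved mostly down: 16 of 23 tested fell and 6 rose, with a median of -0.40. Alpl, the phosphatase that frees phosphate for mineral, stood at 7.61, 6.84 and 7.89 CPM with BIGH3 and 25.3, 22.9 and 24.4 CPM in the controls (-1.699 ± 0.32, adjusted p = 0.0019). Bglap and Bglap2, the osteocalcin genes, fell from 13.3, 13.2 and 13.3 to 3.74, 3.64 and 4.197 CPM and from 26.04, 28.1 and 24.1 to 8.39, 7.17 and 6.83 CPM (-1.78 ± 0.16 and -1.80 ± 0.11), with the reservation that these copies share most of their sequence with Bglap3. Omd, osteomodulin, fell by 1.74 ± 0.08, Ogn, osteoglycin, by 1.16 ± 0.06, Kazald1 from 59.96 to 14.98 CPM and Aspn, asporin, by 2.18 ± 0.07 (largest adjusted p 5.44e-12).

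The 6 members that rose were Spp1, Mgp, Dmp1, Fam20c, Postn and, named after its value was seen, the procollagen C-proteinase Bmp1 (0.22 ± 0.04). Spp1, osteopontin, stood at 11009, 10687 and 10102 CPM with BIGH3 and 3119, 3200.4 and 3314 CPM in the controls (1.72 ± 0.04, adjusted p = 2.88e-17), and Mgp, the matrix Gla protein that inhibits calcification, at 1130.3, 1095 and 1001 and 309.7, 335 and 332 CPM (1.72 ± 0.06, adjusted p = 2.68e-15). Dmp1, the osteocyte matrix protein, rose from 37.1, 35.6 and 38.6 to 80.1, 81.8 and 95.3 CPM (1.21 ± 0.07, adjusted p = 9.65e-12), and Fam20c, the kinase of these phosphoproteins, by 0.90 ± 0.06. Phex, the osteocyte endopeptidase whose loss causes hypophosphataemic rickets, fell from 80.2, 87.3 and 83.7 to 20.9, 25.2 and 25.6 CPM (-1.81 ± 0.08, adjusted p = 3.04e-13), beside 8.27 CPM in undifferentiated controls. In TPM, Spp1 with BIGH3 stood at 10349 ± 241 and Dmp1 at 38.9 ± 4.92 (SD, n = 3). Of 15 genes of phosphate and pyrophosphate control, 5 rose and 8 fell. Ank, which exports pyrophosphate, rose by 0.29 ± 0.05 and Nt5e, which makes adenosine from AMP, fell by 0.63 ± 0.08.

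Among 28 transcription factors of the osteoblast lineage, 6 rose and 13 fell. Dlx5, a homeobox activator of osteoblast genes, stood at 3.42, 3.53 and 4.09 CPM with BIGH3 and 8.599, 7.87 and 9.93 CPM in the controls (-1.26 ± 0.13, adjusted p = 7.26e-08). Msx1 fell by 1.22 ± 0.10, Sox11 by 1.12 ± 0.12 and Hes1, a Notch target, by 1.54 ± 0.16, while Lef1, the nuclear partner of β-catenin, rose from 1.86, 2.83 and 2.01 to 6.20, 5.56 and 6.94 CPM (1.48 ± 0.20). The master factors Runx2 and Sp7 moved by -0.16 ± 0.06 and -2.19 ± 0.65 (adjusted p = 0.05 and 0.0092, named after their values were seen) with Sp7 (osterix) the lower of the pair. Of 12 osteocyte markers tested, 5 rose and 4 fell. Pdpn, the E11 antigen of early osteocytes, rose from 190.2, 183 and 204 to 293, 294 and 263 CPM (0.56 ± 0.05, adjusted p = 3.46e-08), while Capg and Dstn, actin-binding proteins listed as osteocyte markers, did not pass the test (-0.04 ± 0.05 and 0.06 ± 0.05).

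Osteocytes direct osteoclasts through RANKL and its decoy OPG. Tnfsf11, which encodes RANKL, had 9 reads over the 3 BIGH3 libraries and 0 over the 3 controls, too few to be tested. Tnfrsf11b, which encodes OPG, stood at 103, 105 and 112 CPM with BIGH3 and 292, 294 and 310.1 CPM in the controls, with no overlap (-1.48 ± 0.05, adjusted p = 7.31e-15). Csf1, the survival factor of osteoclast precursors, rose by 0.57 ± 0.04, and Sema3a, which protects bone, fell by 0.42 ± 0.05. Of 12 such ligands and decoys tested, 6 rose and 2 fell. Summed osteoclast markers stood at 95.6 to 97.4 CPM with BIGH3 and 71.8 to 79.2 CPM in the controls, with Mmp9 higher (1.603 ± 0.08) and Ctsk, cathepsin K, lower (-0.99 ± 0.08).

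Cartilage genes fell in 14 of 19 tested and rose in 1, Epyc (1.68 ± 0.59, named after its value was seen), or 13 and 0 without the liver-positive pair, with a median of -1.11. Col2a1, the cartilage collagen, stood at 5.699, 6.68 and 7.61 CPM with BIGH3 and 51.8, 50.9 and 46.4 CPM in the controls (-2.91 ± 0.12, adjusted p = 1.60e-10), and undifferentiated controls held 115 CPM. Cytl1, a cytokine-like protein of chondrocytes, went from 31.4, 34.6 and 32.7 to 3.42, 4.12 and 3.25 CPM (-3.19 ± 0.11). Cnmd, chondromodulin, had 801 reads in the controls and 6 with BIGH3, and its log2 fold change of -6.78 became -7.75 without BIGH3 replicate 2. Fgfr3, the receptor that restrains the growth plate, fell by 1.69 ± 0.13 and the adaptor protein Matn2 by 1.11 ± 0.05. Sox9, the master factor of cartilage, fell by 0.34 ± 0.05 (adjusted p = 4.89e-06), while Sox5 and Col11a1 did not pass the test (0.29 ± 0.13 and -0.12 ± 0.08).

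Fibrillar and other collagen chains fell in 13 of 27 cases and rose in 3 (11 and 1 without the liver-positive pair), with a median of -0.24. Col15a1, of basement membranes, stood at 2.14, 1.98 and 2.01 CPM with BIGH3 and 11.2, 10.9 and 9.84 CPM in the controls (-2.38 ± 0.19), Col6a3, of the microfibrils around cells, fell by 1.14 ± 0.06, and Col27a1 by 1.01 ± 0.08. The main bone collagen chains Col1a1 and Col1a2 moved by -0.30 ± 0.10 and -0.24 ± 0.06 (named after their values were seen). Col28a1 rose by 1.34 ± 0.09. Enzymes that modify and crosslink collagen went both ways, 14 of 28 up and 10 down. The prolyl hydroxylase P3h2 rose by 1.35 ± 0.08 and Adamts14, a procollagen N-proteinase, by 1.12 ± 0.09, while Adamts2, the main N-proteinase, fell by 0.84 ± 0.06. Lox, the crosslinking oxidase, did not pass the test (0.01 ± 0.04).

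The small leucine-rich proteoglycans, which coat collagen fibrils, were divided, 6 of 15 up and 7 down (4 up and 7 down without the liver-positive pair). Dcn, decorin, stood at 1044, 1038 and 975 CPM with BIGH3 and 317, 332 and 360.1 CPM in the controls (1.599 ± 0.05), and Fmod, fibromodulin, at 41.1, 44.7 and 37.5 and 233, 241 and 262 CPM (-2.58 ± 0.06, adjusted p = 1.51e-17), with 18.6 CPM in undifferentiated controls. Bgn, biglycan, did not pass the test (-0.06 ± 0.04). Elastic fibre genes fell in 9 of 18 cases and rose in 5 (2 without the liver-positive pair). Mfap4, a microfibril protein, went from 5.498, 4.76 and 7.46 to 0.456, 0.695 and 0.336 CPM (-3.56 ± 0.29), Mfap5 fell by 1.59 ± 0.16 and Ltbp4, which anchors latent TGF-β, by 1.39 ± 0.11, whereas Ltbp2 rose by 1.29 ± 0.10.

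Of 16 matrix metalloproteinases and their inhibitors, 6 rose and 6 fell. Mmp13, the collagenase of bone, stood at 159.97, 158 and 147 CPM with BIGH3 and 42.6, 42.2 and 44.8 CPM in the controls (1.84 ± 0.07, adjusted p = 2.83e-14), and the inhibitor Timp1 at 499.6, 463 and 354 and 139.7, 144 and 134 CPM (1.66 ± 0.11). Timp3 and Timp2 moved the other way (-0.85 ± 0.04 and -0.36 ± 0.04). In the ADAMTS family 4 of 17 rose and 8 fell, with the aggrecanase Adamts4 up by 1.08 ± 0.07 and Adamts5, another aggrecanase, down by 0.33 ± 0.05. Matricellular proteins split evenly, 8 of 19 each way. Tgfbi itself, the endogenous gene for BIGH3, rose from 83.5, 83.3 and 84.6 to 149, 148 and 134 CPM (0.78 ± 0.05). The added protein is human and gives no mRNA. Thbs2 rose by 1.03 ± 0.04, Ccn3 fell from 529, 538 and 534 to 172, 165 and 153 CPM (-1.71 ± 0.05), Sparcl1 fell by 0.98 ± 0.06 and Tnc, tenascin C, by 0.88 ± 0.05.

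Connexins form gap junctions and pannexins form related single-membrane channels. 8 of 23 had enough reads to be tested, 1 rose and 4 fell. Gja1, connexin 43, stood at 204, 213 and 204 CPM with BIGH3 and 115, 122 and 118 CPM in the controls (0.80 ± 0.05, adjusted p = 1.98e-11), and no library overlapped. Undifferentiated cells held 135, 132 and 134 CPM in the controls and 130.04, 144 and 142 CPM with BIGH3. The β connexin Gjb5 fell by 1.92 ± 0.37 (adjusted p = 2.71e-04), with 95 control reads. Panx3, the pannexin of osteoblasts and chondrocytes, went from 21.4, 24.9 and 26.9 to 4.47, 5.03 and 5.15 CPM (-2.32 ± 0.11). In TPM with BIGH3, Gja1 stood at 84.2 ± 1.98 and Panx3 at 2.53 ± 0.307. Gjc1 did not pass the test (0.15 ± 0.08).

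Of 17 genes for proteins that bind, place or phosphorylate connexin 43, 3 rose and 9 fell, or 2 and 10 without the liver-positive pair. Cdh2, N-cadherin, fell from 70.5, 65.2 and 68.9 to 39.6, 35.4 and 36.5 CPM (-0.87 ± 0.06), Cdh11, the osteoblast cadherin, by 0.45 ± 0.04, Cav1, caveolin 1, by 0.49 ± 0.05 and the kinase Prkca by 0.56 ± 0.05. The kinase Csnk1d did not pass the test (0.06 ± 0.04). Integrins are the known receptors of BIGH3. Of 20 subunits tested, 3 rose and 6 fell, or 2 and 6 without the liver-positive pair. The 9 called of 20 are near the share over all genes tested, 45.5%. Itga8, the chain that pairs with β1 to bind nephronectin, stood at 2.78, 3.42 and 2.91 CPM with BIGH3 and 26.7, 29.6 and 31.9 CPM in the controls (-3.27 ± 0.12), and the collagen-binding chains Itga1 and Itga11 fell by 1.05 ± 0.18 and 0.69 ± 0.07. Itgb1 and Itga5 did not pass the test (0.01 ± 0.05 and -0.04 ± 0.06).

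IGF genes fell in 8 of 14 cases and rose in 4 (median -0.48). Igf2, the fetal growth factor, stood at 167, 173 and 155 CPM with BIGH3 and 1022, 1079 and 1142 CPM in the controls, and its imprinted neighbour H19, a non-coding RNA, at 22.7, 18.2 and 16.96 and 122, 118 and 109 CPM (-2.71 ± 0.06 and -2.58 ± 0.14, adjusted p = 1.03e-18 and 1.47e-07). Undifferentiated controls held 111 CPM of Igf2, below the differentiated controls, and 117 CPM of H19, within the range of the differentiated controls. The binding protein Igfbp5, abundant in bone, went from 164, 167 and 182 to 83.2, 80.4 and 78.6 CPM (-1.08 ± 0.05), and Pappa2, a protease of IGF-binding proteins, fell by 1.49 ± 0.06. Igf2r, which clears IGF2, rose by 0.52 ± 0.05 and Igfbp7 by 0.88 ± 0.07.

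Of 23 TGF-β and BMP ligands and antagonists, 7 rose and 9 fell. The BMP antagonist Grem1 stood at 94.7, 90.8 and 91.1 CPM with BIGH3 and 25.5, 21.2 and 22.9 CPM in the controls (1.99 ± 0.10), while Bmp4 fell by 0.81 ± 0.05 and the antagonists Nbl1 and Fst by 0.85 ± 0.06 and 0.86 ± 0.05. Of 15 Wnt genes 6 rose and 5 fell. Wif1, a secreted Wnt inhibitor, went from 9.63, 8.82 and 8.69 to 1.14, 0.856 and 0.672 CPM (-3.32 ± 0.22), Wnt9a and the decoy Sfrp2 fell by 1.29 ± 0.16 and 0.69 ± 0.05, and Wnt6 rose by 1.78 ± 0.15. Notch genes fell in 7 of 12 cases and rose in 2 (median -0.28). The ligand Jag1 fell by 0.39 ± 0.06 and the target Hes1 from 12.5 to 4.26 CPM. Heyl, another target, had 3 reads with BIGH3 and 47 in the controls, and its log2 fold change of -3.601 was -4.57 without the liver-positive pair, -4.54 without BIGH3 replicate 3, -2.995 without BIGH3 replicate 1, -4.499 with length offsets and -0.47 with limma on log2(TPM + 1), a scale that lowers the values of low genes.

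Because the series concerns cell death, its genes are given with their directions. In the BCL2 family 1 of 16 rose and 6 fell. Bcl2, which protects cells, stood at 17.7, 19.1 and 18.3 CPM with BIGH3 and 8.56, 11.1 and 10.2 CPM in the controls (0.89 ± 0.10, adjusted p = 2.79e-07). Of the genes that promote death, Bok fell by 0.69 ± 0.15 and Bbc3 (Puma) by 0.65 ± 0.11, Bax moved by -0.18 ± 0.06 (adjusted p = 0.021), and Mcl1, which protects, fell by 0.21 ± 0.05. The call of Bax was lost without BIGH3 replicate 1 (adjusted p = 0.11) and without control replicate 1 (0.08). Trp53 stood at 83.7, 88.9 and 82.9 and 61.7, 64.03 and 62.8 CPM (0.44 ± 0.06, adjusted p = 2.54e-06). Of 30 caspases, death receptors and their inhibitors, 16 rose and 4 fell. Casp4, the inflammatory caspase that senses endotoxin, rose by 1.33 ± 0.08 (adjusted p = 9.64e-12). The inhibitors Birc3 and Cflar rose by 1.396 ± 0.09 and 0.52 ± 0.05. The list also holds Birc5, which rose with the mitosis genes (2.17 ± 0.09). RNA levels do not measure caspase activity.

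Sterol synthesis genes rose in 19 of 28 cases and fell in 1, with a median of 0.46. Msmo1, an oxidase of the pathway, stood at 102, 103 and 106 CPM with BIGH3 and 51.8, 56.8 and 57.3 CPM in the controls (0.91 ± 0.06, adjusted p = 2.47e-11), and the enzymes Fdft1, Fdps and Sqle rose by 0.80 ± 0.05, 0.81 ± 0.06 and 0.73 ± 0.05. In fatty acid synthesis and desaturation 11 of 22 rose and 6 fell, with the desaturases Fads1 and Fads2 up by 0.86 ± 0.05 and 0.55 ± 0.06. Of 30 glycolysis and hypoxia genes, 9 rose and 9 fell. Hif1a rose by 0.81 ± 0.05, its target Vegfa by 0.97 ± 0.05 and Pfkfb3, which drives glycolytic flux, by 0.91 ± 0.05, while Pfkp fell by 0.79 ± 0.06 and Ldha did not pass the test (0.03 ± 0.05).

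Targets of NRF2 and antioxidant enzymes fell in 15 of 36 cases and rose in 7. Sod2, the mitochondrial superoxide dismutase and an NF-κB target, stood at 289.6, 297 and 256 CPM with BIGH3 and 96.4, 97.8 and 97.5 CPM in the controls (1.53 ± 0.05), and Nqo1, a classical NRF2 target, at 111, 109 and 114 and 231, 242 and 253 CPM (-1.12 ± 0.06). Mgst1 and Gstt1, glutathione transferases, rose by 1.799 ± 0.09 and 1.49 ± 0.08, and Gsta4 fell by 1.196 ± 0.07. Muscle and actomyosin genes fell in 17 of 32 cases and rose in 8 (median -0.32). Vcl, vinculin, went from 331, 312 and 322 to 162, 168 and 185 CPM (-0.91 ± 0.05), the tropomyosin gene Tpm1 fell by 0.58 ± 0.05 and the fast troponin gene Tnnt3 by 1.81 ± 0.14, while Flna did not pass the test (-0.03 ± 0.05). Of 19 amino acid carriers 4 rose and 5 fell, among the latter the taurine carrier Slc6a6 by 1.18 ± 0.05.

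At the level of single transcripts, 5684 of 40063 tested were called (14.2%), 2620 higher (6.54%) and 3064 lower (7.65%). The number called was 3296 without the liver-positive pair. Transcript values are split by estimation from reads that several transcripts share, and a transcript's SE in log2 was 0.43 in the median. Use of transcripts within a gene differed in 841 of 9175 genes with more than 1 tested transcript (9.17%, edgeR diffSpliceDGE with adjustment over genes). It was 500 without the liver-positive pair, 537 without BIGH3 replicate 2 and 539 without BIGH3 replicate 3. In these fits, in that order, 311, 401 and 406 of the 841 were still called. Of the 841 genes, 202 had also risen as a whole, 263 had fallen and 376 had not been called, and in 95 a different transcript was the most abundant.

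The gene with the smallest adjusted p for usage and a share that moved by 20 points or more was Postn, which encodes periostin, a matricellular protein of bone with the same type of fasciclin domains as BIGH3. Its gene total moved little (0.19 ± 0.04), while its C-terminal exons changed (usage adjusted p = 3.93e-22, called in 11 of 11 alternatives). A coding exon of 81 bases, chr3:54380412-54380492 on the plus strand of GRCm38, was held by 9.88, 10.6 and 11.6% of its 4 full-length transcripts with BIGH3 and by 27.2, 28.1 and 28.8% in the controls. Another of 84 bases, chr3:54385671-54385754, was held by 20.95, 19.2 and 22.7% and 50.5, 47.1 and 48.1%. The treated libraries lay below the controls in both exons without overlap, and undifferentiated cells held 46.2% of the shorter exon and 62.3% of the longer one in the mean of the controls. Postn-204, which lacks both, made up 59.04, 60.8 and 57.3% of the gene's TPM with BIGH3 and 27.5, 30.03 and 27.4% in the controls, and 6.07, 6.37 and 5.59% in undifferentiated controls. Postn-202, which holds both, went from 6.998% to 0.84% in the means. Both exon sequences, from the GENCODE M21 transcripts, are shown in full because they are coding sequence that the annotated transcripts hold or lack. Their lengths are whole numbers of codons, and periostin protein was not measured.
Postn exon of 81 bases: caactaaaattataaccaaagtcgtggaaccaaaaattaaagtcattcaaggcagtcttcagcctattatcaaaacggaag
Postn exon of 84 bases: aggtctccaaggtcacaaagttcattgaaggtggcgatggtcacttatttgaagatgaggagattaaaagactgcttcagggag

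**Figure D3:**
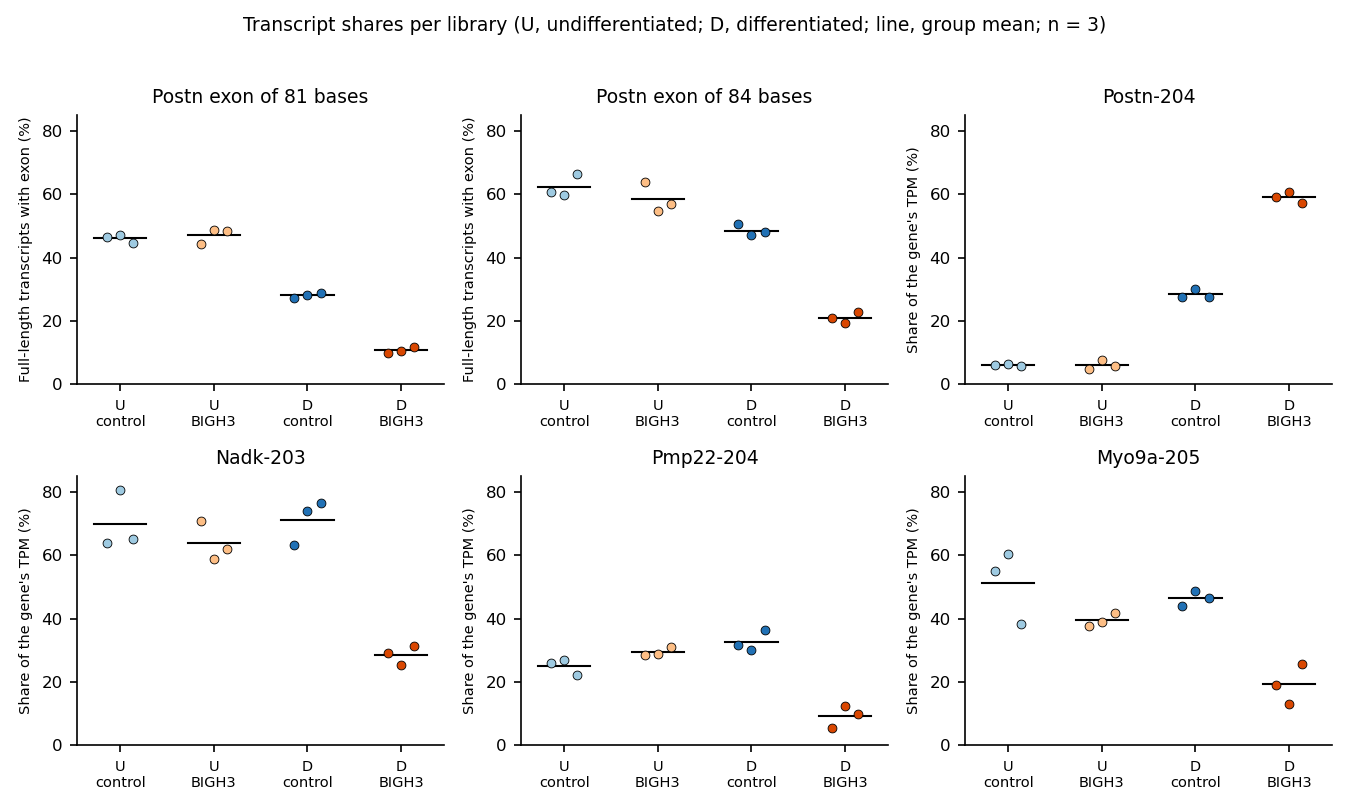
The vertical axes give, per library, the percentage of full-length Postn transcripts that hold each of 2 exons and the percentage of a gene's TPM taken by 4 transcripts, with lines at the means of 3. The differentiated BIGH3 libraries are the lowest group for both Postn exons, Nadk-203, Pmp22-204 and Myo9a-205, and the highest for Postn-204.

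Other genes changed their first exon or an internal one. Nadk, the NAD kinase that makes NADP, starts at different first exons in Nadk-201 and Nadk-203. Nadk-203 took 29.1, 25.2 and 31.4% of the gene's TPM with BIGH3 and 63.3, 73.96 and 76.6% in the controls, Nadk-201 took 61.97% and 24.9% in the means, and the gene total rose by 0.51 ± 0.05. Pmp22, a membrane protein of myelin and growth arrest, also differs by first exon: Pmp22-204 took 5.34, 12.4 and 9.77% with BIGH3 and 31.6, 30.1 and 36.4% in the controls while the gene fell by 0.74 ± 0.04. Myo9a, an unconventional myosin, differs by a coding exon of 213 bases: Myo9a-205 went from 43.9, 48.8 and 46.4% in the controls to 18.9, 13.03 and 25.7% with BIGH3. Dpep2-202, Plekhg2-202 and Disp1-202 were listed at 0 in 1 group: Dpep2-202 took 35.7% and Plekhg2-202 25.3% of their genes in the controls, and Disp1-202 20.1% with BIGH3. An exact 0 here can be a failed estimate, and the calls of Plekhg2 and Disp1 were lost with limma's diffSplice. The same rule named Fam120b, Lztr1, Zfp746 and Phf1, whose leading shares moved by 20 to 33 points. The usage call of Lztr1 was lost without the liver-positive pair and without control replicate 2 (highest adjusted p 0.066). The gene total of Lztr1 changed sign with length correction, as given in the closing section.

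Among genes described above, Cxcl12 rose in total and shifted toward Cxcl12-203 (22.4% with BIGH3, 16.5% in the controls, usage adjusted p = 1.34e-10), with Cxcl12-202 remaining the main transcript at 72.5% and 80.99%. Il6st-203 took 65.03% and 55.99% (adjusted p = 0.021). Gja1-201 made up 99.4% and 99.5% of Gja1 (adjusted p = 0.89).

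By annotated type, 600 of 7999 retained-intron transcripts were called higher (7.501%) and 67 lower (0.838%), with a median log2 fold change of 0.48. Protein-coding transcripts leaned the other way, 1653 higher (6.79%) and 2786 lower (11.4%), with a median of -0.09. The retained-intron counts depended on the fit. They were 265 higher and 40 lower without the liver-positive pair. Between 325 and 411 were higher and 36 and 63 lower when 1 of the 6 libraries was left out. With all 12 libraries kept, a replicate block gave 413 higher and 56 lower, and limma-voom 419 and 52. The direction held in each of those fits. Summed over the annotation, retained-intron transcripts held 2.85, 2.74 and 2.96% of TPM with BIGH3 and 2.86, 2.56 and 2.37% in the controls, and these overlap. Genes for splicing regulators rose in 15 of 41 cases and fell in 3, by small amounts such as 0.45 ± 0.08 for Hnrnpa1 and 0.37 ± 0.06 for Mbnl2.

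Calls were made in 28.6% of 2021 genes of other types and in 48.1% of 12690 protein-coding genes, and the difference between these shares was not tested. Lockd, a non-coding RNA downstream of Cdkn1b, stood at 15.3, 14.6 and 10.9 CPM with BIGH3 and 3.72, 2.78 and 3.84 CPM in the controls (1.98 ± 0.14, adjusted p = 2.06e-10). F730043M19Rik moved by 1.97 ± 0.16, D430020J02Rik by 1.76 ± 0.16, 4932422M17Rik by 1.62 ± 0.19, 2700038G22Rik by 1.59 ± 0.18, A230065N10Rik by 1.49 ± 0.15 and N4bp2os, antisense to N4bp2, by 1.39 ± 0.18. With strand not given, antisense genes cannot be told apart from their partners.

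Some genes were nearly silent in 1 group. Under 0.1 CPM in the controls and over 1 CPM with BIGH3, 20 genes were found, and 25 in the opposite direction. Named after their values were seen, Vnn3, a vanin of the pantetheinase family, had 164 reads with BIGH3 and 0 in the controls, at least 66.1-fold higher with 3 reads per group as the floor. Grm7, a glutamate receptor, had 73 and 0, at least 29.6-fold higher. Ebi3, a subunit of IL-27 and IL-35, had 80 reads and 1, a ratio of 86.2 (16.1 to 3702). In the other direction Akp3, an intestinal-type alkaline phosphatase, had 0 reads with BIGH3 and 176 in the controls, at least 53.8-fold lower. Matn1, the cartilage matrilin, had 0 and 82, at least 24.8-fold lower, and the kallikrein gene Klk1 0 and 92, at least 27.6-fold lower. Eln, elastin, had 4 and 96 reads. The kallikrein relatives Klk1b21 and Klk1b24 had 3 and 1 reads with BIGH3 and 285 and 327 in the controls, with reads possibly divided among near copies.

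The remaining large changes fell outside the lists. Ch25h, the 25-hydroxylase of cholesterol, stood at 23.2, 24.2 and 19.8 CPM with BIGH3 and 1.94, 1.51 and 2.06 CPM in the controls (3.6005 ± 0.23, adjusted p = 2.34e-10). Tmem176a and Tmem176b, a neighbouring pair of membrane protein genes, rose by 3.12 ± 0.06 and 2.49 ± 0.07. Kng2, a kininogen, rose by 2.98 ± 0.23, Ereg, an EGF receptor ligand, by 2.57 ± 0.16 and Bcat1, which transaminates branched-chain amino acids, by 2.54 ± 0.17. Among the falls, Gas6, the ligand of TAM receptors, went from 336, 310.2 and 335 to 52.1, 54.7 and 60.4 CPM (-2.55 ± 0.07, adjusted p = 1.82e-16). Apod, a lipocalin that carries lipids, went from 3577, 3446 and 3782 to 400.1, 410.2 and 397 CPM (-3.16 ± 0.05). Cmklr1, the chemerin receptor, fell by 2.42 ± 0.19, Angptl1 by 2.497 ± 0.20, Ripor2 by 2.45 ± 0.16 and Clec3b, tetranectin, by 2.15 ± 0.08. All of these had non-overlapping groups by the rule that named them.

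For comparison between states, 4730 of 14711 genes (32.2%) were called for a difference between the effect of BIGH3 in differentiated and in undifferentiated cells, and 4572 of the 6687 genes called in differentiated cells were among them (68.4%), a share helped by the differentiated libraries that both contrasts use. In undifferentiated cells BIGH3 against control gave 3 calls. Of 12 genes followed for this, Saa3, Cxcl5, Nos2, C3, Mcm5, Mki67, Spp1, Gja1 and Tgfbi had a higher log2 fold change in differentiated cells and Tnfrsf11b, Phex and Panx3 a lower one. In undifferentiated cells their log2 fold changes lay between -0.12 (Nos2) and 0.73 (Saa3).

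**Figure D4:**
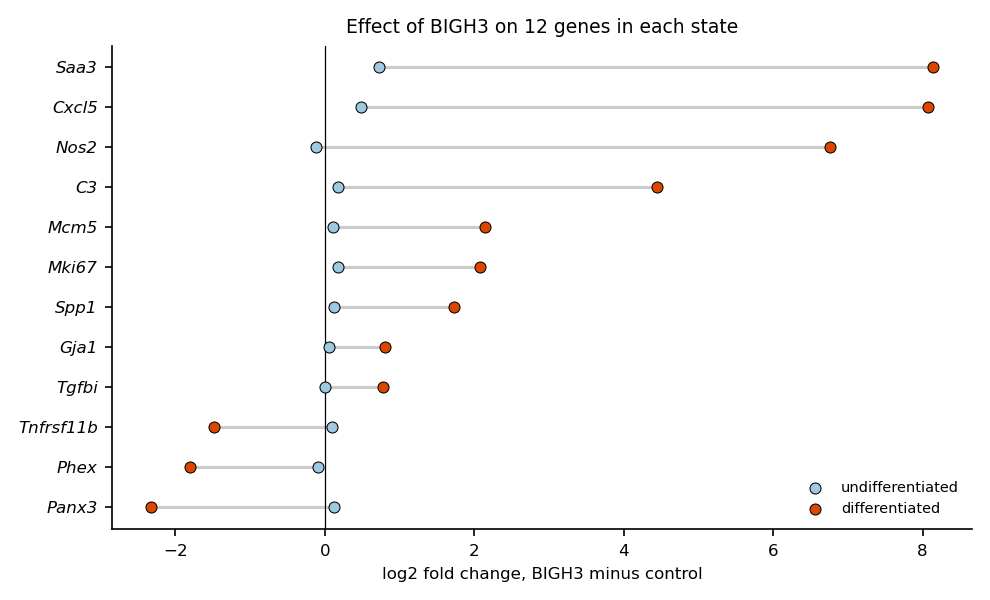
The horizontal axis gives the log2 fold change of BIGH3 against control for 12 genes, with 1 point for undifferentiated and 1 for differentiated cells, joined by a line. The undifferentiated points lie close to 0, and the differentiated points run from -2.32 (Panx3) to 8.14 (Saa3).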

How the data were processed

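RNA-seq libraries made with a KAPA kit were quantified by the authors, with Salmon, StringTie, cutadapt and FastQC and the genome mm10 listed without versions or roles in the submitters' processing notes. The deposited tables give, per transcript, an estimated count of reads, TPM (per the file headers) and lengths. Transcripts were matched to GENCODE M21 by identifier without version: 137063 of 147828 matched, 98.5% of those with the same length, and reads on the rest (1.28 to 3.67% per library) were left out. Estimated counts were summed per gene and rounded. All 12 libraries, grouped by their treatment labels, entered 1 edgeR 4.0.16 quasi-likelihood fit with TMM scaling and edgeR's filter on low counts (minimum count 10), 1 term per group and no replicate block, with R 4.3.3. A call is a Benjamini-Hochberg adjusted p under 0.05 over all genes. SE is the log2 fold change divided by the root of the F statistic. Transcripts were fitted in the same way, and usage with diffSpliceDGE. Alternatives were DESeq2 1.42.0, RLE factors, length offsets, library totals, no filter, limma 3.58.1 on log2(TPM + 1), limma-voom, diffSplice, the 6 differentiated libraries alone, a replicate block, and leaving out libraries. Scripts were tested on simulated data.

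The members and gene lists were chosen with earlier results of these data known. The text names the 25 largest rises and falls, up to 6 called members of each list with the smallest adjusted p and up to 2 not called with the highest CPM, fixed genes of interest, 12 genes by usage and 8 non-coding genes. Genes outside this rule are said to be named after their values were seen, as were the origin recognition, collagen type I and marker genes and the fitted total of Postn. Some genes that these rules name are not reported here. Intervals and floors cover counting error only. The kit's strand is not given in the sources used here.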

Additional observations from a re-analysis of the deposited data

Results flagged for a closer look

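For 12 genes the effect of BIGH3 differed between differentiated and undifferentiated cells by a test of the difference itself (the interaction term of the edgeR quasi-likelihood fit, with Benjamini-Hochberg adjustment over all genes, n = 3 per group). Each value is the log2 fold change in differentiated cells minus that in undifferentiated cells, with its SE. The inflammatory genes had the largest differences of the 12: Cxcl5 by 7.59 ± 0.35 (adjusted p = 1.04e-07), Saa3 by 7.41 ± 0.60 (adjusted p = 2.25e-05), Nos2 by 6.88 ± 0.61 (adjusted p = 1.72e-08) and C3 by 4.27 ± 0.07 (adjusted p = 2.39e-20). The cell cycle genes differed less, Mcm5 by 2.05 ± 0.11 (adjusted p = 8.96e-12) and Mki67 by 1.901 ± 0.09 (adjusted p = 1.94e-12). The matrix gene Spp1 differed by 1.596 ± 0.06 (adjusted p = 6.72e-14) and Tgfbi by 0.77 ± 0.08 (adjusted p = 1.09e-07). Gja1 differed by 0.75 ± 0.07 (adjusted p = 2.89e-08). Panx3, Phex and Tnfrsf11b went the other way, by -2.44 ± 0.14 (adjusted p = 4.48e-11), -1.72 ± 0.13 (adjusted p = 2.81e-09) and -1.58 ± 0.08 (adjusted p = 3.18e-12). Levels in the control libraries differed between the states for some of these genes, and the part of that difference was not tested.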

How the results depend on the processing

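The number of genes called in differentiated cells, 6687, was 5145 to 6824 under 15 alternatives, all within 1.5 times, and no gene called in the reported fit was called in the opposite direction. Leaving out 1 library gave 5896 to 6138. The 5684 called transcripts became 3296 without the liver-positive pair, and 4097 to 4576 when 1 library was left out. The 841 genes with changed usage became 500 without the liver-positive pair, 537 in the fit of the 6 differentiated libraries alone, 575 with limma's diffSplice, and 537 to 659 when 1 library was left out. Many of these were other genes. Of the 841, 311 were still called without the liver-positive pair and 408 with the 6 libraries alone. With diffSplice, which kept all 12 libraries, 370 were, and with 1 library left out 394 to 469. The 4730 genes called for the interaction were 3656 to 4757. Fewer libraries lower these counts by construction. An alternative that did not test a gene was not counted for that gene. Of 341 named genes that were called, 328 kept the call in every alternative that tested them. The call was lost in 1 or more by 12: Adamtsl3, Bad, Bax, Bcl2l2, Cd59a, Clu, Cr1l, Itgb5, Notch1, Pf4, Ptges and Slc20a1. The remaining gene, Lztr1, changed sign: it was -0.20 in log2 as reported, 0.0194 with length offsets and 0.0536 with limma on log2(TPM + 1). Lztr1 also changed transcript use, and the cause was not tested. Low genes had smaller values on log2(TPM + 1), by the construction of that scale.

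Replicate numbers are shared by the groups. Deviations of same-numbered differentiated libraries correlated at 0.138, -0.173 and -0.139, which shows no pairing by number. With 3 libraries a group these values cannot exclude a pairing. The highest correlation between the groups, 0.323, joined BIGH3 replicate 3 and control replicate 2, the liver-positive pair. With the replicate as a block 6639 genes, 4767 transcripts, 573 genes for usage and 4669 for the interaction were called, and no named gene lost its call. Depth limits genes under about 10 reads, the transcript shares, and any statement on Sost, Mepe, Fgf23 and Tnfsf11. Dose, time and vehicle are not known, the line was not tested, and 3 libraries a group of unstated independence bound the errors.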
